A study of Homo sapiens with 12 samples.

Results

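The baseline transcriptomes of RL and Pfeiffer, both established human lymphoma cell lines, were compared in the vehicle-treated libraries alone. These are 4 of the 12 libraries of the series, 2 of RL and 2 of Pfeiffer. Genes were kept where FPKM, a transcript's fragments relative to its length and to all mapped fragments in that library, was 1 or more in at least 2 of these 4 libraries, which left 16636 of the 63129 gene identifiers in the table. Both lines come from diffuse large B cell lymphomas of the germinal centre type, and both carry a SET domain mutation that raises EZH2 activity, as does KARPAS-422, whose 3 vehicle libraries are given here for context. All of these cells received 0.1% DMSO at seeding and were harvested 4 days later, and none of the 7 libraries had an EZH2 inhibitor. RL was seeded at 200000 cells per ml and the other lines at 500000. Per the series' design text, Pfeiffer and KARPAS-422 show a phenotypic response when EZH2 is inhibited, whereas RL shows none, so that the comparison asks how a non-responsive line differs at baseline from a responsive one. Each group is a single cell line, so that in this comparison 1 line stands for each response class. KARPAS-422, also responsive, lay near RL for some genes below and near Pfeiffer for others. Differences between RL and Pfeiffer therefore cannot be assigned to the response. The labels do not say that the replicates were separate cultures, so the spread behind each p-value is that between these libraries and may be technical.

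EZH2 is the catalytic subunit of Polycomb repressive complex 2 (PRC2), which methylates histone H3 at lysine 27 and keeps genes silent. In the germinal centre, where B cells mutate their antigen receptors and are selected, PRC2 and the repressor BCL6 hold back both the plasma cell programme and cell cycle brakes. A B cell leaves this state when IRF4 and PRDM1 take over from BCL6, BACH2 and PAX5. The title of the series concerns the interferon-stimulated genes, which are switched on when interferon receptors activate a complex that holds STAT2 and IRF9, and which include much of the class I antigen presentation machinery.

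Between 13974 and 13991 genes reached 1 FPKM in the RL libraries and between 15480 and 15594 in the Pfeiffer libraries. The values over all genes summed to 455853 and 460907 FPKM in RL and to 628281 and 610420 in Pfeiffer, and the 10 most abundant genes held 2.26% and 2.39% of the sum in RL and 6.37% and 6.71% in Pfeiffer. Replicates correlated across genes at Pearson's r = 0.997 in RL and 0.996 in Pfeiffer. The absolute depth is unknown. The spacing of the lowest values put the depth of the second RL library at 0.773 times that of the first, and those of the Pfeiffer libraries at 1.03 and 1.36 times. Line and library number series cannot be told apart in this design.

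The lines differed in most of what they expressed. Of the 16636 genes, 13726 (82.5%) passed limma at an adjusted p under 0.05, and 6885 (41.4%) passed and also differed at least 2-fold on the log2(FPKM + 1) scale. Of these, 2804 (16.9% of genes tested) were higher in RL and 4081 (24.5%) lower. At any size 6704 genes (40.3%) were higher and 7022 (42.2%) lower. Among the 11040 protein-coding genes the 2-fold calls were almost even, with 1977 (17.9%) higher and 1939 (17.6%) lower, and these shares are the background for the gene groups below. At any size 8909 protein-coding genes (80.7%) passed, 4982 (45.1%) as higher and 3927 (35.6%) as lower. "Higher" and "lower" below mean higher or lower in RL with both criteria met, unless another rule is given. "Measured" means that a gene passed the filter of 1 FPKM, and the other listed genes were mostly low and not missing. The split of all genes depended on the scaling: RL-high genes were 40.7% of the 2-fold calls as deposited, 53.2% after quantile normalization and 52.6% when each library was brought to the same protein-coding sum. These scalings moved the median of all genes by 0.12 and 0.24, from a median log2 difference of -0.03. At the edge of the filter, ZXDA just entered at 1.05 and 1.00 FPKM in Pfeiffer and ZNF831 was just left out at 1.06 and 0.999 FPKM in RL.

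**Figure D1:**
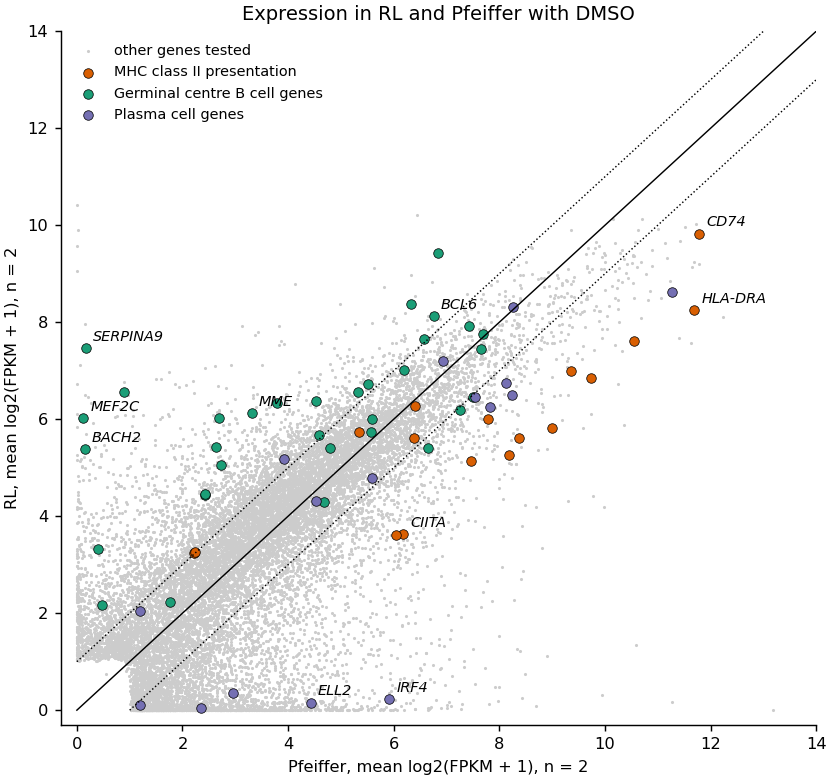
Mean log2(FPKM + 1) in RL (vertical axis, n = 2) against Pfeiffer (horizontal axis, n = 2) for the 16636 genes tested. The solid line marks equal levels and the dotted lines a 2-fold difference. MHC class II genes lie mostly below the dotted lines, germinal centre genes mostly on or above them and plasma cell genes mostly below.

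RNA classes that lack a poly(A) tail stood apart and were counted separately. Replication-dependent histone transcripts end in a stem-loop instead of a tail, and 42 of 52 were lower in RL and 0 higher, with a median log2 difference of -1.46. Their median level was 0.378 and 0.517 FPKM in RL, 3.40 and 2.73 in Pfeiffer and 0.147 to 0.292 in KARPAS-422. By the sum of the 52 genes KARPAS-422 lay between the lines, at 130 to 155 FPKM. The sums were 40.5 and 45.9 FPKM in RL and 221 and 201 in Pfeiffer. Of 156 small structured RNA genes, 129 were lower and 2 higher, with a median of -1.77. RN7SL2, a gene of the signal recognition particle RNA, was at 233 and 154 FPKM in the RL libraries and 3179 and 3152 FPKM in the Pfeiffer libraries. For this gene every Pfeiffer library lay far above every RL library, and KARPAS-422 lay between them at 589 to 671 FPKM. SNORD3A, the U3 snoRNA that processes ribosomal RNA, differed by -5.53, and RN7SK, which holds the elongation factor P-TEFb inactive, by -3.47 on the log2 scale. For both, KARPAS-422 lay near RL. SNORD3A was at 2.54 to 5.84 FPKM in KARPAS-422 against 1.8 and 5.75 in RL. RN7SK was at 7.17 to 16.2 FPKM in KARPAS-422 against 7.28 and 27.1 in RL. The small structured RNAs summed to 759 and 562 FPKM in RL, to 13930 and 12530 in Pfeiffer and to 1929 to 2163 in KARPAS-422. Their median level was 0 to 3.46e-07 FPKM in KARPAS-422, 0.0801 and 8.71e-09 in RL and 3.1 and 2.46 in Pfeiffer. Which lysis or kit each library had is not given in the sources used here, so that line and RNA preparation cannot be told apart. Processed pseudogenes, whose reads can come from their parent genes, had 279 members higher and 1296 lower of 2955 (median -0.82), while long intergenic RNAs had 97 higher and 116 lower of 404 (median 0.02).

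**Figure D2:**
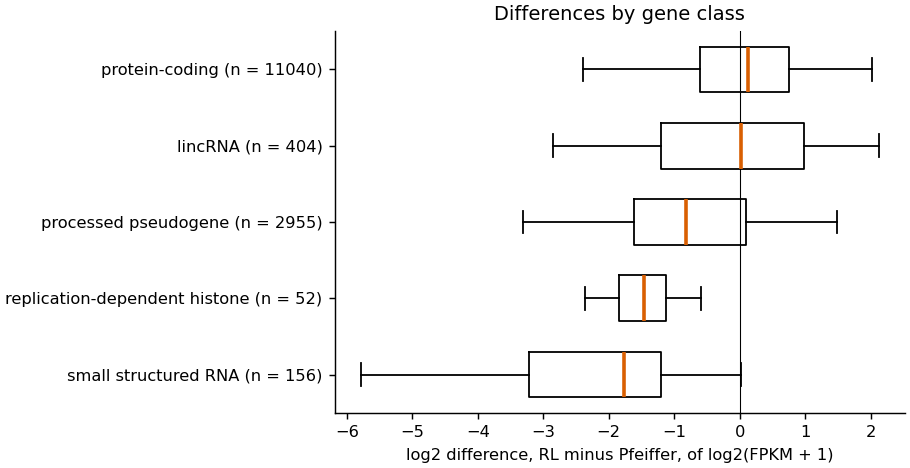
Log2 differences (RL minus Pfeiffer, horizontal axis) by gene class. Boxes give the quartiles, the coloured line the median and the whiskers the percentiles 5 and 95. The median is above 0 for protein-coding genes (0.13) and lowest for small structured RNAs (-1.77).

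Of the 10 defining markers of B cells, 9 reached 1 FPKM in at least 1 library of each line, and EBF1 did not in Pfeiffer. PAX5, the commitment factor of the B lineage, was at 53.1 and 50.9 FPKM in the RL libraries and 42.4 and 50.8 FPKM in the Pfeiffer libraries, and the lower RL value was almost equal to the higher Pfeiffer value (log2 difference 0.16, SE 0.109, limma adjusted p = 0.205). The coactivator gene POU2AF1 did not pass either (log2 difference -0.2, SE 0.0986, limma adjusted p = 0.0947). EBF1, which works with PAX5, was at 9.37 and 8.76 FPKM in the RL libraries and 0.233 and 0.395 FPKM in the Pfeiffer libraries, and KARPAS-422 had 60.4 to 63.5 FPKM. Of the 10 markers, 4 were higher and 3 lower, and with quantile normalization 4 were higher and 0 lower by 2-fold. Fewer cells of a type and less RNA per cell cannot be told apart in bulk samples.

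Germinal centre genes were the group with the highest median difference among the groups in the plot by gene list. Of 33 measured members, 21 were higher in RL and 3 lower, and 5 of the 33 were under 1 FPKM in both Pfeiffer libraries. The median log2 difference was 1.36, against 0.13 for all protein-coding genes. SERPINA9 (chr14:94929053-94946026, hg19), a serpin used as a germinal centre marker, was at 171 and 181 FPKM in the RL libraries and 0.0978 and 0.146 FPKM in the Pfeiffer libraries. It was therefore abundant in RL and near 0 in Pfeiffer (log2 difference 7.3, SE 0.0851, limma adjusted p = 2.46e-09), with 22.8 to 26.3 FPKM in KARPAS-422. STAP1, an adaptor expressed in B cells, was at 89.8 and 96.3 FPKM in RL against 1.04 and 0.676 in Pfeiffer (log2 difference 5.67, SE 0.117, limma adjusted p = 1.14e-08). MME, the gene of the surface antigen CD10, was at 69.6 and 67.8 FPKM in the RL libraries and 9.26 and 8.57 FPKM in the Pfeiffer libraries. The RL values were 7.71 times the Pfeiffer values on average, and KARPAS-422 lay in between at 34.4 to 39.99 FPKM (log2 difference 2.81, SE 0.0846, limma adjusted p = 5.81e-08).

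Transcription factors of that stage followed the same split, with 10 of 19 higher and 2 lower. BCL6 (chr3:187439164-187463515), the repressor that defines the germinal centre B cell, was expressed in both lines, at 275 and 279.95 FPKM in the RL libraries and 106 and 109 FPKM in the Pfeiffer libraries. The RL values were above the Pfeiffer values by 2.59 times (log2 difference 1.36, SE 0.0824, limma adjusted p = 2.28e-06), and the KARPAS-422 values of 194 to 208 FPKM lay between them. BACH2, which delays plasma cell differentiation, was at 42.3 and 39.3 FPKM in the RL libraries and 0.109 and 0.105 FPKM in the Pfeiffer libraries. It was expressed in both RL libraries and near 0 in both Pfeiffer libraries, with 0.591 to 1.03 FPKM in KARPAS-422 (log2 difference 5.24, SE 0.121, limma adjusted p = 1.73e-08). MEF2C, a factor needed for antigen receptor-driven B cell growth, was at 64.7 and 63.7 FPKM in RL against 0.0623 and 0.117 in Pfeiffer (log2 difference 5.9, SE 0.0606, limma adjusted p = 2.08e-09) and reached 101 to 104 FPKM in KARPAS-422. The members in the other direction were IRF8, which helps to drive BCL6 (89.5 and 84.1 FPKM in RL against 177 and 183 in Pfeiffer; log2 difference -1.04, SE 0.0948, limma adjusted p = 2.27e-05), and IKZF3, the gene of Aiolos (42.1 and 40.7 FPKM in RL against 92.1 and 107 in Pfeiffer; log2 difference -1.24, SE 0.0937, limma adjusted p = 7.91e-06). The adaptor gene GCSAM, a germinal centre marker, was lower as well (log2 difference -1.06, SE 0.0882, limma adjusted p = 1.38e-05). With each library at the same protein-coding sum, 0 members of the list were lower by 2-fold.

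**Figure D3:**
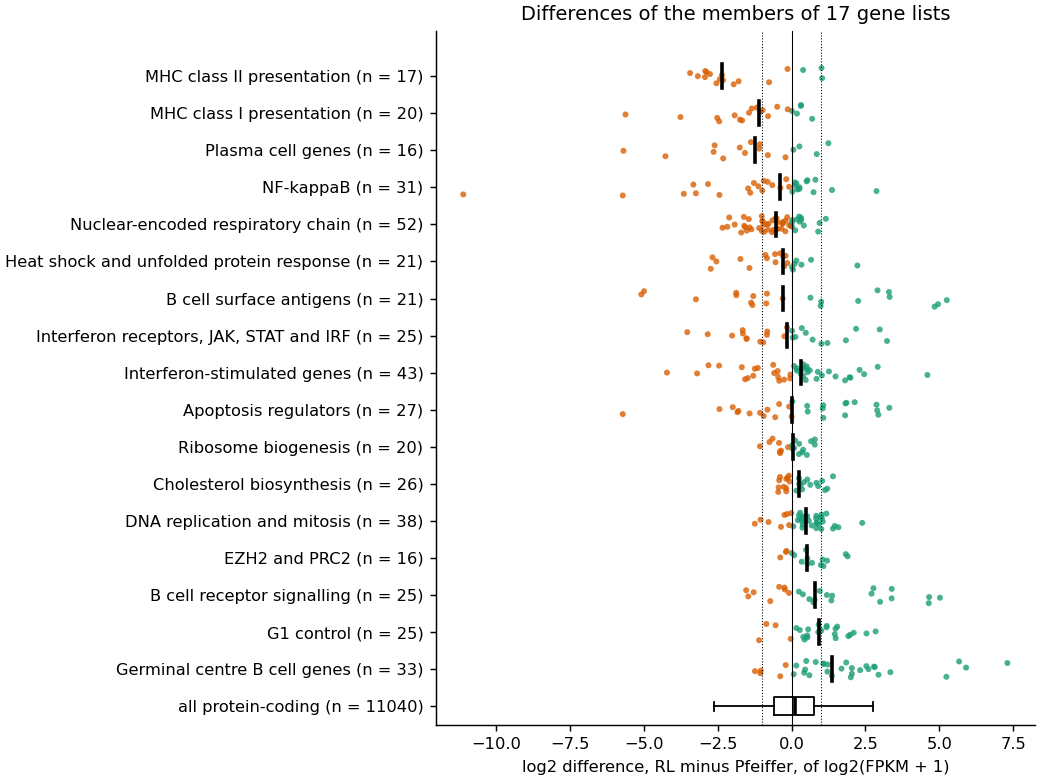
Log2 differences (RL minus Pfeiffer) of the measured members of 17 gene lists, each point 1 gene, green above and orange below 0. Black bars are list medians, dotted lines mark 2-fold, and the box at the bottom shows quartiles of all protein-coding genes. Medians run from -2.36 for MHC class II to 1.36 for germinal centre genes.

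Plasma cell genes ran the other way. Of 16 measured members, 10 were lower in RL and 1 higher, with a median of -1.24, and 5 of the 16 were under 1 FPKM in both RL libraries. With quantile normalization 7 were lower and 2 higher (median -0.85), and at equal protein-coding sums 8 were lower and 2 higher. IRF4 (chr6:391738-411447), which ends the germinal centre programme and drives plasma cell fate, was at 0.129 and 0.209 FPKM in the RL libraries and 56.8 and 62 FPKM in the Pfeiffer libraries. Both RL libraries were near 0, as were those of KARPAS-422 at 0.00523 to 0.0405 FPKM (log2 difference -5.69, SE 0.0839, limma adjusted p = 4.09e-09). ELL2, an elongation factor that directs secretory immunoglobulin processing, was at 0.123 and 0.104 FPKM in RL against 22.5 and 18.7 in Pfeiffer (log2 difference -4.27, SE 0.124, limma adjusted p = 4.88e-08). PRDM1, which encodes Blimp-1, was low in both lines, at 0.0547 and 0.0878 FPKM in the RL libraries and 1.16 and 1.44 FPKM in the Pfeiffer libraries. It lay above 1 FPKM in the Pfeiffer libraries alone (log2 difference -1.1, SE 0.0722, limma adjusted p = 3.55e-06), and its difference shrank to -0.31 with quantile normalization. The surface antigen gene SLAMF7 was at 0.235 and 0.337 FPKM in RL against 6.88 and 6.75 in Pfeiffer (log2 difference -2.6, SE 0.113, limma adjusted p = 3.82e-07). TXNDC5, a disulfide isomerase of the secretory pathway, was the member higher in RL (35.2 ± 4.58 against 14.4 ± 3.63 FPKM, SD, n = 2 each; log2 difference 1.24, SE 0.186, limma adjusted p = 4.23e-04).

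Of 25 measured genes of B cell receptor signalling, 11 were higher in RL and 3 lower (median 0.78), and at any size 17 were higher and 7 lower. Among the receptor and its surface modulators the 2-fold count was 8 of 10 higher and 1 lower. CD79A and CD79B encode the chains that carry the signal of the receptor, and the lines had them in opposite order. CD79A was at 431 and 445 FPKM in the RL libraries and 15.3 and 17.6 FPKM in the Pfeiffer libraries, so that RL had 26.6 times as much (log2 difference 4.65, SE 0.101, limma adjusted p = 1.29e-08). CD79B was at 563 and 562 FPKM in the RL libraries and 1547 and 1563 FPKM in the Pfeiffer libraries. Here both Pfeiffer libraries were higher (log2 difference -1.47, SE 0.159, limma adjusted p = 6.49e-05), although the difference shrank to -0.25 with quantile normalization. KARPAS-422 had 494 to 543 FPKM of CD79A and 452 to 567 of CD79B, near the RL values for both.

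Inhibitory partners of the receptor were among the members higher in RL. CD22, a sialic acid-binding inhibitor of the receptor, was at 329 and 329.7 FPKM in RL against 31.5 and 29.7 in Pfeiffer (log2 difference 3.39, SE 0.0829, limma adjusted p = 2.19e-08). CD72, another inhibitory co-receptor, was at 66.1 and 66.6 FPKM in RL against 0.958 and 1.2 in Pfeiffer (log2 difference 5.02, SE 0.101, limma adjusted p = 1.02e-08), and PTPN6, the phosphatase SHP-1 that both recruit, was at 35.8 and 36.8 FPKM in RL against 2.74 and 2.38 in Pfeiffer (log2 difference 3.39, SE 0.0757, limma adjusted p = 1.49e-08). KARPAS-422 was near RL for CD22 (399 to 425 FPKM) and near Pfeiffer for CD72 (1.19 to 1.52). Among kinases and adaptors, BLK (63 ± 1.82 against 7.05 ± 0.597 FPKM, SD, n = 2 each) and the scaffold gene BANK1 (28.4 ± 1.58 against 0.178 ± 0.053 FPKM) were higher, and the kinases LYN (31.6 ± 1.37 against 78.4 ± 3.15 FPKM) and PIK3CD (6.85 ± 0.371 against 21.8 ± 0.71 FPKM) lower. The log2 differences of these were 2.99, 4.64, -1.28 and -1.54. SYK, the kinase that binds the phosphorylated CD79 chains, was at 102 and 101 FPKM in the RL libraries and 121 and 120.5 FPKM in the Pfeiffer libraries. Its difference was small (log2 difference -0.24, SE 0.0654, limma adjusted p = 0.00918) and did not keep its sign: it was 0.039 with each library at the same protein-coding sum. It also missed the threshold with the replicate number as a block (limma adjusted p = 0.0542) and without either RL library (limma adjusted p = 0.0538 and 0.0563).

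The immunoglobulin constant genes differed by isotype. IGHM, the constant gene of IgM, was at 748 and 772 FPKM in RL and is listed at 0 in both Pfeiffer libraries and in the 3 of KARPAS-422. IGHD, the constant gene of IgD, was at 70.2 and 66.2 FPKM in RL and is likewise listed at 0 in the other 5 libraries. The kappa light chain gene IGKC was at 8793 and 9803 FPKM in Pfeiffer and at 5.49e-09 and 4.50e-09 in RL. IGHE, the constant gene of IgE, was at 0.688 and 0.67 FPKM in the RL libraries and 323 and 394 FPKM in the Pfeiffer libraries. Both IGKC and IGHE were higher in Pfeiffer (IGHE log2 difference -7.74, SE 0.107, limma adjusted p = 3.60e-09). Of the 15 constant genes, 5 were higher, 7 lower and 1 did not pass. These genes share sequence and reads can be split between them, so single members are uncertain. An exact 0 can be a failed estimate in this table, so the values of 0 for IGHM and IGHD do not show that these transcripts were absent.

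Other B cell surface antigens showed no common direction, with 8 of 21 measured members higher and 8 lower, or 9 and 5 with quantile normalization (median -0.30, which changed sign to 0.01 in 1 of the 18 alternatives). CD82, a tetraspanin, was at 114 and 113 FPKM in RL against 1.66 and 2.39 in Pfeiffer (log2 difference 5.25, SE 0.109, limma adjusted p = 1.14e-08), and CD38, an enzyme of NAD metabolism found on germinal centre and plasma cells, was at 43.9 and 42.5 FPKM in RL against 0.565 and 0.296 in Pfeiffer (log2 difference 4.96, SE 0.106, limma adjusted p = 1.23e-08). CD180, a Toll-like receptor homologue of B cells, was at 31.3 and 30.6 FPKM in RL against 0.128 and 0.104 in Pfeiffer (log2 difference 4.84, SE 0.0647, limma adjusted p = 3.45e-09). In the other direction, MS4A1, the gene of CD20, was at 260.3 and 255 FPKM in RL against 993 and 905 in Pfeiffer (log2 difference -1.88, SE 0.142, limma adjusted p = 8.11e-06; -0.95 with quantile normalization). TNFRSF17, the BCMA receptor of plasma cells, was at 18.7 and 19.1 FPKM in RL against 661 and 606 in Pfeiffer (log2 difference -4.99, SE 0.123, limma adjusted p = 2.22e-08), and IL2RG, the common chain of several cytokine receptors, was at 0.358 and 0.886 FPKM in RL against 56.9 and 49.9 in Pfeiffer (log2 difference -5.08, SE 0.171, limma adjusted p = 1.03e-07). The libraries of the lines did not overlap for any of these 6 genes. Apart from MS4A1, which was fixed, they were named for their small adjusted p or large difference, so this follows from the choice.

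**Figure D4:**
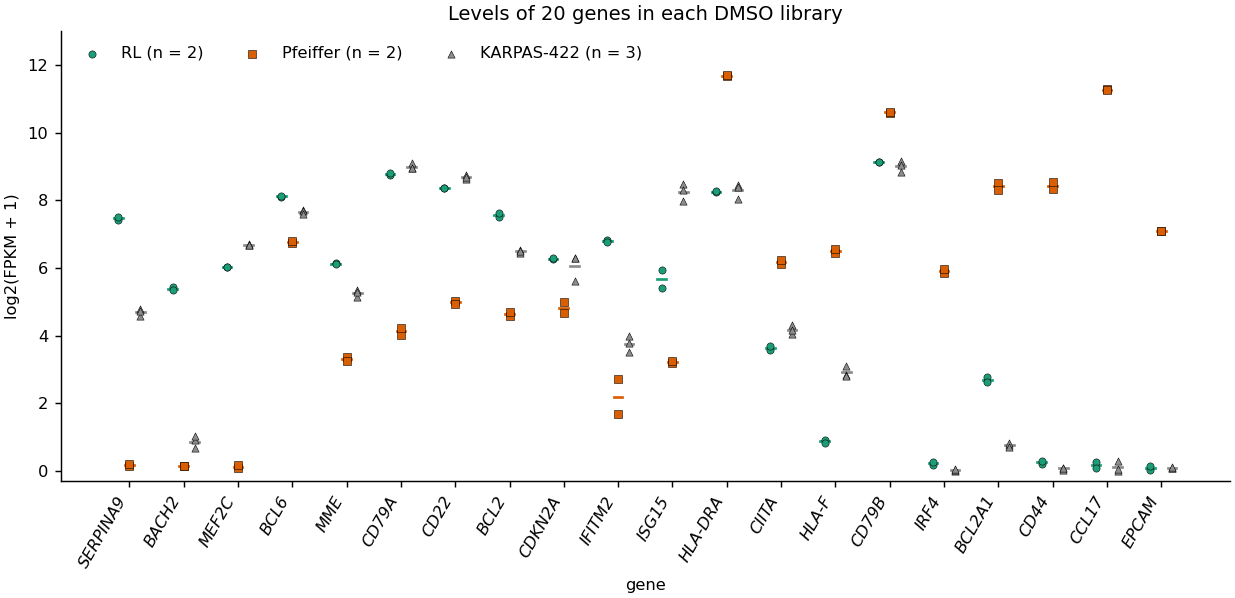
Level, as log2(FPKM + 1), of 20 named genes in each DMSO library of RL (circles), Pfeiffer (squares) and KARPAS-422 (triangles), with short lines for the means. Replicates lie close together, and RL and Pfeiffer do not overlap for any of the 20 genes. All 20 were called at least 2-fold, so this does not describe genes at large. KARPAS-422 lies near RL for CD79A, CD79B, HLA-DRA and CCL17, and above both lines for ISG15.

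MHC class II genes, which present peptides of ingested antigens to helper T cells, had the lowest median of the lists in the plot by gene list. Of 17 measured members, 12 were lower in RL and 2 higher, with a median log2 difference of -2.36. Their promoters share a module in which the X box binds the RFX complex and the Y box binds NF-Y, and CIITA is recruited to both. Promoter sequences of members are shown because the members moved together. They come from the RefSeq table of GRCh38.p14, run from -180 to -1 relative to the start of the gene on its minus strand, and are written 5′ to 3′. Capitals mark matches to the X box core CAACNGATG and to the Y box CTGATTGG, searched on both strands of the 250 bases before each start.
HLA-DRB1 (chr6:32589849-32590028): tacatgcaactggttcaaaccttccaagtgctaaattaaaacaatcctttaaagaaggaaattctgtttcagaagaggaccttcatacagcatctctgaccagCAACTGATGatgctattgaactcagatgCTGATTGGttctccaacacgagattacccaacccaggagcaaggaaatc
HLA-DRB5 (chr6:32530288-32530467): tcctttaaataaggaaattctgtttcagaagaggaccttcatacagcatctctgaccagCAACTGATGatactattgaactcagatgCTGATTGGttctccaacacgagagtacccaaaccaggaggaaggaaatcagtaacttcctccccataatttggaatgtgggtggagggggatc
HLA-DQB1 (chr6:32666658-32666837): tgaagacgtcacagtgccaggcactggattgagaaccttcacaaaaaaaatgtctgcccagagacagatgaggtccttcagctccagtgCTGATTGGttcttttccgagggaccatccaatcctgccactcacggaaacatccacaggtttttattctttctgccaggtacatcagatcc
HLA-DMA (chr6:32953098-32953277): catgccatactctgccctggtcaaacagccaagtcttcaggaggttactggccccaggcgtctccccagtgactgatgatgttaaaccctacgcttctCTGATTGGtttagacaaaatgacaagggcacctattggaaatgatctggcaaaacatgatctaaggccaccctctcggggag

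The table held promoters of 14 of the 17 members. The X box core was found in 2 of these, HLA-DRB1 and HLA-DRB5, and in 127 (0.362%) of all 35116 promoters, and the Y box in 5 of the 14 and in 3.81% of all. In HLA-DRB1 the X box core began at -77 and the Y box at -49, and in HLA-DRB5 they began at -121 and -93. HLA-DQB1 and HLA-DMA had the Y box alone within these letters. Of the 5 genes with a Y box, 4 were lower in RL, and RFX5, the DNA-binding subunit of the RFX complex, was not, with 52 and 52 FPKM in RL against 39.9 and 39.1 in Pfeiffer. Over the whole list 12 of 17 were lower, and whether the box goes with the direction was not tested.

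CIITA (chr16:10971054-11026079), the coactivator that controls class II transcription, was at 10.8 and 12 FPKM in the RL libraries and 68.1 and 74.8 FPKM in the Pfeiffer libraries. Pfeiffer had 6.25 times the RL level, with both Pfeiffer libraries above both RL libraries (log2 difference -2.54, SE 0.102, limma adjusted p = 2.56e-07), and KARPAS-422 had 15.4 to 18.7 FPKM. The RFX subunit gene RFXAP went the other way, at 8.36 and 8.45 FPKM in RL against 3.98 and 3.36 in Pfeiffer (log2 difference 1.01, SE 0.0938, limma adjusted p = 2.57e-05). HLA-DRA (chr6:32407618-32412823), the invariant alpha chain of HLA-DR, was at 300.1 and 309 FPKM in the RL libraries and 3268 and 3344 FPKM in the Pfeiffer libraries. The level in Pfeiffer was 10.9 times that in RL (log2 difference -3.44, SE 0.172, limma adjusted p = 8.31e-07), and KARPAS-422 had 261 to 351 FPKM, close to RL. HLA-DPB1 was at 56.9 and 54.7 FPKM in RL against 503 and 519 in Pfeiffer (log2 difference -3.17, SE 0.0689, limma adjusted p = 1.31e-08), HLA-DRB5 at 38.3 and 36.2 FPKM in RL against 289.6 and 288 in Pfeiffer (log2 difference -2.92, SE 0.112, limma adjusted p = 2.02e-07) and HLA-DQB1 at 48.1 and 47.5 FPKM in RL against 316 and 345 in Pfeiffer (log2 difference -2.76, SE 0.079, limma adjusted p = 4.52e-08). HLA genes differ between people and share sequence, so that alignment to a single reference makes each of these levels uncertain.

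The chaperones of class II did not all follow. CD74, the invariant chain that guides class II molecules to the endosome, was at 879 and 934 FPKM in the RL libraries and 3343 and 3724 FPKM in the Pfeiffer libraries, with Pfeiffer again above RL (log2 difference -1.96, SE 0.177, limma adjusted p = 2.19e-05). HLA-DOB, which restrains peptide loading in B cells, was higher in RL, at 8.91 and 8.36 FPKM in RL against 3.8 and 3.62 in Pfeiffer (log2 difference 1.03, SE 0.134, limma adjusted p = 1.84e-04), and KARPAS-422 had 32.9 to 44.7 FPKM. RFXAP and HLA-DOB lay at the 2-fold limit, and the count of members higher was 1 in place of 2 with median scaling, without RL replicate 1 or without Pfeiffer replicate 2. Quantile normalization reduced the differences of genes among the most abundant in Pfeiffer: HLA-DRA to -1.98, HLA-DPA1 from -2.93 to -1.85 and CD74 to -0.27, which no longer passed (limma adjusted p = 0.0563). The count of members lower was 11 or 12 in every one of the 18 alternatives.

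Class I genes, which present peptides from inside the cell to cytotoxic T cells, also had lower levels in RL. Of 20 measured members, 11 were lower and 0 higher, with a median of -1.12, and 5 of the 6 chains were among the 11. HLA-F was at 0.886 and 0.769 FPKM in the RL libraries and 85.1 and 92.8 FPKM in the Pfeiffer libraries, under 1 FPKM in both RL libraries and with 6.04 to 7.54 FPKM in KARPAS-422 (log2 difference -5.62, SE 0.114, limma adjusted p = 1.06e-08). HLA-B was at 57.5 and 54 FPKM in the RL libraries and 739 and 799 FPKM in the Pfeiffer libraries, with Pfeiffer at 13.8 times the level of RL (log2 difference -3.76, SE 0.123, limma adjusted p = 8.93e-08). B2M (chr15:45003674-45011075), the light chain that every class I molecule needs, was at 590.2 and 615 FPKM in the RL libraries and 3444 and 3154 FPKM in the Pfeiffer libraries. RL was again lower in each library (log2 difference -2.45, SE 0.232, limma adjusted p = 2.89e-05), and KARPAS-422 lay between at 1374 to 1930.5 FPKM. With quantile normalization B2M differed by -0.90 and 7 members of the list were lower and 1 higher. ERAP2, an aminopeptidase that trims peptides, and TAPBPL, a peptide editor, had positive differences under 2-fold (0.7 and 0.32), and TAPBPL missed the threshold without RL replicate 2 (limma adjusted p = 0.0617) or Pfeiffer replicate 2 (0.0588).

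Interferon-stimulated genes had as many members higher as lower in RL. Of 57 listed, 43 passed the filter, and 10 of these were higher and 10 lower by 2-fold, with a median of 0.31. At any size, 22 passed as higher, 14 as lower and 7 did not pass. Of the 43, 5 were under 1 FPKM in both Pfeiffer libraries and 4 in both RL libraries. ISG15 (chr1:948802-949920), a ubiquitin-like protein, was at 60.4 and 41.4 FPKM in the RL libraries and 8.05 and 8.57 FPKM in the Pfeiffer libraries. RL replicate 1 was well above replicate 2, both were above Pfeiffer (log2 difference 2.45, SE 0.204, limma adjusted p = 1.35e-05), and KARPAS-422 was above all of them at 249 to 355 FPKM. IFITM2, which blocks viral entry, was at 112 and 107 FPKM in the RL libraries and 5.56 and 2.18 FPKM in the Pfeiffer libraries, a large difference with a wide spread between the Pfeiffer libraries (log2 difference 4.6, SE 0.304, limma adjusted p = 3.71e-06). Its near-identical paralogues can share its reads. TRIM22 was at 25.3 and 22.1 FPKM in RL against 2.45 and 2.09 in Pfeiffer (log2 difference 2.91, SE 0.101, limma adjusted p = 1.19e-07) and IFIT1, which binds viral RNA, at 2.57 and 2.17 FPKM in RL against 0.244 and 0.16 in Pfeiffer (log2 difference 1.49, SE 0.168, limma adjusted p = 8.09e-05). IFIT1 missed the threshold when all 12 libraries were fitted together (limma adjusted p = 0.0609).

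Members lower in RL included an enzyme that attaches ISG15 to proteins. MX2, a GTPase that restricts retroviruses and herpesviruses, was at 0.54 and 0.786 FPKM in the RL libraries and 31.8 and 28.1 FPKM in the Pfeiffer libraries. It was thus near 0 in RL, and KARPAS-422 had 17.5 to 18.3 FPKM (log2 difference -4.22, SE 0.0987, limma adjusted p = 1.83e-08). UBE2L6, the conjugating enzyme of ISG15, was at 13.8 and 11.2 FPKM in RL against 89 and 98.2 in Pfeiffer (log2 difference -2.81, SE 0.0986, limma adjusted p = 1.27e-07), and LY6E, a membrane protein, at 0.0474 and 0.201 FPKM in RL against 9.5 and 9.1 in Pfeiffer (log2 difference -3.2, SE 0.127, limma adjusted p = 2.38e-07). MX1 was at 17.5 and 11.5 FPKM in RL against 21.7 and 22.1 in Pfeiffer, with RL replicate 2 the lowest and KARPAS-422 at 142 to 154 FPKM (log2 difference -0.59, SE 0.164, limma adjusted p = 0.0107). MX1 did not pass without either Pfeiffer library (limma adjusted p = 0.0778 and 0.0873), nor when all 12 libraries were fitted together (limma adjusted p = 0.386). Thus ISG15 and UBE2L6, members of a single conjugation pathway, differed in opposite directions.

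Many interferon target promoters hold the interferon-stimulated response element, whose core was searched as GAAANNGAA on both strands of the 250 bases before the start. The core was found in 2416 (6.88%) of all promoters and in 8 of the 16 class I presentation genes with a promoter in the table, 5 of which were lower in RL and 0 higher. Over the whole class I list 11 of 20 were lower and 0 higher, and whether the core goes with the direction was not tested. Promoters of the ISG list were not counted because 33 of the 43 members (76.7%) had one, under the minimum of 80% set for a count. The following 4, shown because genes with the same core lay on opposite sides of the comparison, are on the plus strand of GRCh38.p14 from -180 to -1, with matches in capitals. Overlapping matches run together in ISG15 and B2M, and that of HLA-F is on the opposite strand, so its reverse complement is printed.
ISG15 (chr1:1013317-1013496): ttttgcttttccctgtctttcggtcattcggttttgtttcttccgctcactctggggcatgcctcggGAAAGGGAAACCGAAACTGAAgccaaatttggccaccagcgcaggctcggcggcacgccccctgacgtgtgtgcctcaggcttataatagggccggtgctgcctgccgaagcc
IFI44L (chr1:78620268-78620447): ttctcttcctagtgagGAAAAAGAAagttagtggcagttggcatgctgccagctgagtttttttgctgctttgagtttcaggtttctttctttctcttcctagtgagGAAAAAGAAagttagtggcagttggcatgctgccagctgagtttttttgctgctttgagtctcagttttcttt
B2M (chr15:44711337-44711516): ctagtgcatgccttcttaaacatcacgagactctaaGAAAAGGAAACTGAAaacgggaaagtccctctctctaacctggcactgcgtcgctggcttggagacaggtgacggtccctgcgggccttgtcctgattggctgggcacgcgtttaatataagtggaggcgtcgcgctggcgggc
HLA-F (chr6:29723254-29723433): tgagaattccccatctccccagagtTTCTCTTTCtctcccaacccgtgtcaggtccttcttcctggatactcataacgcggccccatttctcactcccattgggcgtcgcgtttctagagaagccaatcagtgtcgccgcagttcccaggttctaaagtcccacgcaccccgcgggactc
ISG15 and IFI44L were higher in RL, and B2M and HLA-F lower. IFI44L, chosen after its values were seen, was at 4.08 and 2.78 FPKM in RL against 0.15 and 0.0978 in Pfeiffer (log2 difference 1.96, SE 0.152, limma adjusted p = 9.02e-06). A match is a description of these letters and not of binding.

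Of the 25 measured signalling components of the interferon pathway, 1 was under 1 FPKM in both Pfeiffer libraries and 2 in both RL libraries. STAT2 did not differ by more than the spread, at 26.1 and 26.7 FPKM in the RL libraries and 26.3 and 25.9 FPKM in the Pfeiffer libraries (log2 difference 0.02, SE 0.0694, limma adjusted p = 0.828). IRF9, its DNA-binding partner, was at 16.5 and 15.3 FPKM in the RL libraries and 18.3 and 19.8 FPKM in the Pfeiffer libraries, a difference that missed the threshold (log2 difference -0.24, SE 0.103, limma adjusted p = 0.0566) and passed in 5 of 18 alternatives, among them the fit of the 4 libraries alone (limma adjusted p = 0.0205) and those without KARPAS-422 replicate 1 or 2 (0.00859 and 0.0494). IRF7, which amplifies interferon production, was at 7.28 and 5.65 FPKM in RL against 6.45 and 5.18 in Pfeiffer (log2 difference 0.13, SE 0.131, limma adjusted p = 0.382). KARPAS-422 had more of IRF9 (74.4 to 91 FPKM) and IRF7 (58 to 65.4) than either line.

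Of these 25 receptor, kinase, STAT, IRF and feedback inhibitor genes, 6 were higher and 8 lower. Among the 9 receptors and kinases 4 were higher and 2 lower, and among the 12 transcription factors 2 were higher and 3 lower. IFNLR1, the specific chain of the lambda interferon receptor, was at 10.7 and 10.8 FPKM in RL against 0.255 and 0.251 in Pfeiffer (log2 difference 3.23, SE 0.0795, limma adjusted p = 2.26e-08), and STAT5A, which mediates cytokine signals, at 32.4 and 30.8 FPKM in RL against 3.14 and 3.11 in Pfeiffer (log2 difference 2.98, SE 0.0631, limma adjusted p = 1.21e-08). Of the 4 measured feedback inhibitors, 3 were lower in RL. SOCS3, which blocks JAK kinases, was at 0 and 0.0136 FPKM in RL against 10.6 and 10.7 in Pfeiffer (log2 difference -3.53, SE 0.0619, limma adjusted p = 6.20e-09), and PTPN1, a phosphatase that acts on JAK2 and TYK2, was at 14 and 14.9 FPKM in the RL libraries and 107 and 112 FPKM in the Pfeiffer libraries. Pfeiffer had 7.58 times the PTPN1 level of RL (log2 difference -2.84, SE 0.0711, limma adjusted p = 2.46e-08), and KARPAS-422 was near RL at 18.1 to 19.7 FPKM.

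Of 9 measured cytosolic sensors of nucleic acids and their adaptors, 3 were lower in RL and 0 higher, and of 9 measured Toll-like receptors and adaptors, 3 were higher and 0 lower. AIM2, which senses DNA and forms an inflammasome, was at 1.6 and 1.46 FPKM in RL against 31.9 and 32.7 in Pfeiffer (log2 difference -3.72, SE 0.0859, limma adjusted p = 1.69e-08). IFIH1, the MDA5 sensor of double-stranded RNA, was at 0.738 and 0.687 FPKM in RL against 8.17 and 8.23 in Pfeiffer (log2 difference -2.43, SE 0.11, limma adjusted p = 4.83e-07), and MB21D1, the DNA sensor cGAS, at 0.28 and 0.349 FPKM in RL against 4.4 and 4.07 in Pfeiffer (log2 difference -1.99, SE 0.0801, limma adjusted p = 2.54e-07). TLR1, a receptor for bacterial lipopeptides, was at 7.47 and 8.16 FPKM in RL against 1.71 and 2.27 in Pfeiffer (log2 difference 1.56, SE 0.109, limma adjusted p = 4.96e-06), and IRAK4, the kinase under these receptors, at 23.4 and 22.9 FPKM in RL against 8.27 and 7.54 in Pfeiffer (log2 difference 1.44, SE 0.0714, limma adjusted p = 7.81e-07). Whether the sensor groups differ from one another was not tested.

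PRC2 itself was expressed in both lines. Its 6 core subunit genes summed to 420 and 425 FPKM in RL and to 383 and 374 in Pfeiffer. Of these genes 2 were higher in RL by 2-fold and 0 lower, and at any size 4 were higher and 1 lower. EZH2 (chr7:148504474-148581413) was at 66.1 and 65.3 FPKM in the RL libraries and 31.6 and 30.8 FPKM in the Pfeiffer libraries. RL had 2.11 times the level of Pfeiffer (log2 difference 1.05, SE 0.0709, limma adjusted p = 4.17e-06), and KARPAS-422 lay between at 44.4 to 49.1 FPKM. EZH1, its paralogue in resting cells, was at 29.3 and 31.5 FPKM in RL against 12.3 and 13.1 in Pfeiffer (log2 difference 1.2, SE 0.0709, limma adjusted p = 2.00e-06). Of the 16 genes for PRC2 and its opponents, 5 were higher and 0 lower by 2-fold, and their median was 0.54. At any size 11 of them passed as higher and 2 as lower. PHF1, an accessory subunit that recruits the complex, was at 21.9 and 24.5 FPKM in RL against 5.55 and 6.02 in Pfeiffer (log2 difference 1.83, SE 0.0825, limma adjusted p = 4.57e-07). KDM6B, which removes the methyl marks that EZH2 sets, was at 8.43 and 7.71 FPKM in the RL libraries and 1.3 and 1.58 FPKM in the Pfeiffer libraries. It was low in Pfeiffer and highest in KARPAS-422, at 44.8 to 56.4 FPKM (log2 difference 1.89, SE 0.123, limma adjusted p = 3.38e-06). The other demethylase gene, KDM6A, differed slightly in the opposite direction (log2 difference -0.38, SE 0.0732, limma adjusted p = 0.00164) and did not pass at equal protein-coding sums (limma adjusted p = 0.170). The core subunit gene RBBP4 was at 100.2 and 100.4 FPKM in RL against 114 and 115 in Pfeiffer (log2 difference -0.19, SE 0.0686, limma adjusted p = 0.0317). RBBP4 changed sign with quantile normalization (0.0027) and at equal protein-coding sums (0.091), and it lost its call with the replicate block (limma adjusted p = 0.0941) and without any 1 of 6 libraries (limma adjusted p = 0.0520 to 0.118).

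Of 18 measured feedback and target genes of NF-kappaB, 9 were lower in RL and 1 higher, and at any size 12 were lower and 3 higher. Over the list of 31 with subunits and kinases the count was 11 lower and 2 higher (median -0.38). CCL17 (chr16:57438678-57449974), a chemokine that attracts T cells through CCR4, was at 0.187 and 0.0604 FPKM in the RL libraries and 2513 and 2448 FPKM in the Pfeiffer libraries. It was among the most abundant transcripts of Pfeiffer and near 0 in RL (log2 difference -11.11, SE 0.109, limma adjusted p = 2.08e-09), as in KARPAS-422 at 0 to 0.21 FPKM. Its neighbour CCL22, the other ligand of CCR4, was at 0.098 and 0.165 FPKM in RL against 12.5 and 13.9 in Pfeiffer (log2 difference -3.65, SE 0.0768, limma adjusted p = 1.20e-08). BCL2A1, an anti-apoptotic target, was at 5.78 and 5.22 FPKM in the RL libraries and 364 and 317 FPKM in the Pfeiffer libraries, and KARPAS-422 had 0.629 to 0.767 FPKM (log2 difference -5.71, SE 0.0945, limma adjusted p = 4.96e-09). CD83, a maturation marker, was at 32.5 and 32.7 FPKM in RL against 318 and 314 in Pfeiffer (log2 difference -3.24, SE 0.0648, limma adjusted p = 1.02e-08), and BIRC3, a ubiquitin ligase of the TNF receptor complex, at 24.9 and 26 FPKM in RL against 142 and 143 in Pfeiffer (log2 difference -2.44, SE 0.0928, limma adjusted p = 1.90e-07). The death receptor gene FAS (log2 difference 2.87, SE 0.133, limma adjusted p = 5.30e-07) and the kinase gene IKBKB (log2 difference 1.37, SE 0.0911, limma adjusted p = 3.89e-06) were higher in RL.

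The balance of survival genes differed in identity more than in number. Of 27 measured apoptosis regulators, 11 were higher and 7 lower, with a median of 0.02 that changed sign in 2 of 18 alternatives. BCL2 (chr18:60790578-60987361), the anti-apoptotic gene for which the family is named, was at 182 and 195 FPKM in the RL libraries and 22.7 and 24.9 FPKM in the Pfeiffer libraries. RL had 7.92 times as much (log2 difference 2.94, SE 0.0773, limma adjusted p = 3.06e-08), with KARPAS-422 between at 86.5 to 91.8 FPKM. BCL2A1 and BIRC3, given above, were the opposite way. Among pro-apoptotic genes 9 of 18 were higher and 4 lower, and BMF, a BH3-only protein, was at 42.3 and 44 FPKM in RL against 3.03 and 3.94 in Pfeiffer (log2 difference 3.31, SE 0.105, limma adjusted p = 7.79e-08). FAS was at 28.5 and 29.1 FPKM in RL against 3.21 and 2.93 in Pfeiffer.

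Of 25 measured genes that control the G1 phase, 12 were higher in RL and 1 lower (median 0.92), and at any size 20 were higher and 3 lower. All 5 measured CDK inhibitors passed as higher, 4 of them by 2-fold. CDKN2A, which encodes p16 and p14ARF, was at 75.2 and 77.9 FPKM in the RL libraries and 30.5 and 24.2 FPKM in the Pfeiffer libraries (log2 difference 1.46, SE 0.231, limma adjusted p = 5.79e-04). The replicates of Pfeiffer differed from each other by less than their distance to RL, and KARPAS-422 had 47.6 to 77.3 FPKM. CDKN2C was at 84.9 and 87.6 FPKM in RL against 14.7 and 13.4 in Pfeiffer (log2 difference 2.53, SE 0.175, limma adjusted p = 4.77e-06), CDKN2D at 11.7 and 12.3 FPKM in RL against 2.09 and 1.95 in Pfeiffer (log2 difference 2.1, SE 0.0921, limma adjusted p = 3.99e-07) and CDKN1B, which encodes p27, at 26.7 and 26.4 FPKM in RL against 6.26 and 5.73 in Pfeiffer (log2 difference 1.98, SE 0.0838, limma adjusted p = 3.34e-07). CDKN1A, which encodes p21, was higher by less than 2-fold, at 14.6 and 15.2 FPKM in RL against 10.1 and 9.97 in Pfeiffer (log2 difference 0.53, SE 0.0721, limma adjusted p = 2.46e-04; limma adjusted p = 0.376 with all 12 libraries). On the side that promotes the cycle, E2F2 was at 33.6 and 32.2 FPKM in RL against 3.4 and 4.07 in Pfeiffer (log2 difference 2.84, SE 0.114, limma adjusted p = 2.51e-07), CDK6 at 48.1 and 47.2 FPKM in RL against 11.1 and 12.6 in Pfeiffer (log2 difference 1.92, SE 0.106, limma adjusted p = 1.37e-06) and MYC at 171 and 177 FPKM in RL against 73.3 and 78.1 in Pfeiffer (log2 difference 1.19, SE 0.0876, limma adjusted p = 6.84e-06). CCND1, the member lower in RL, was at 0.00666 and 0.0601 FPKM in RL against 1.2 and 1.23 in Pfeiffer (log2 difference -1.1, SE 0.0913, limma adjusted p = 1.35e-05). The count of members lower by 2-fold was 0 with quantile normalization, at equal protein-coding sums and when 5 FPKM were required.

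Replication and mitosis genes had a median of 0.47, with 9 of 38 higher and 2 lower by 2-fold and 28 higher at any size. The 9 comprised 8 of the 18 mitosis genes and 1 of the 20 replication genes. FOXM1, the factor that drives mitotic genes, was at 67.7 and 67.5 FPKM in the RL libraries and 10.9 and 13.5 FPKM in the Pfeiffer libraries. RL was higher in both libraries (log2 difference 2.39, SE 0.109, limma adjusted p = 4.99e-07). The mitotic genes CCNA2 (98.8 ± 0.978 against 32.3 ± 0.576 FPKM), CDC20 (79.99 ± 2.5 against 28.5 ± 2.51 FPKM) and TPX2 (93.4 ± 2.24 against 40.7 ± 2.14 FPKM; SD, n = 2 each) differed by 1.58, 1.46 and 1.18 on the log2 scale. The helicase subunit gene MCM4 (-1.05; -0.58 with quantile normalization) and the kinesin gene CENPE (-1.25) were lower. At equal protein-coding sums the count became 16 higher and 0 lower, so the number depends on how libraries are scaled. Without RL replicate 2, 1 member was lower in place of 2. RL and Pfeiffer were also seeded at different densities, and density and line cannot be told apart.

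Of 38 measured tumour suppressors and lymphoma genes, 13 were higher and 8 lower, or 14 and 5 with quantile normalization. TCL1A, a coactivator of AKT, was at 187 and 184 FPKM in RL against 13.3 and 15.3 in Pfeiffer (log2 difference 3.61, SE 0.104, limma adjusted p = 4.76e-08), whereas its neighbour TCL1B was lower, at 0.203 and 0.12 FPKM in RL against 9.84 and 9.2 in Pfeiffer (log2 difference -3.18, SE 0.0726, limma adjusted p = 1.62e-08). PIM1, a kinase gene mutated in lymphoma, was at 6.2 and 5.94 FPKM in the RL libraries and 147 and 155 FPKM in the Pfeiffer libraries. Pfeiffer was far higher (log2 difference -4.43, SE 0.0803, limma adjusted p = 7.03e-09), and KARPAS-422 had 1.6 to 1.91 FPKM.

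Positioning and adhesion genes showed some of the largest differences without a common direction, with 8 of 19 measured members higher and 7 lower. CD44 (chr11:35160416-35253949), the hyaluronan receptor, was at 0.155 and 0.232 FPKM in the RL libraries and 321 and 372 FPKM in the Pfeiffer libraries. It was near 0 in RL and in KARPAS-422 (0.0253 to 0.0611 FPKM), and abundant in Pfeiffer (log2 difference -8.18, SE 0.0964, limma adjusted p = 2.53e-09). GPR183, the oxysterol receptor that draws B cells out of the follicle centre, was at 0.0507 and 0.0218 FPKM in RL against 105 and 100.02 in Pfeiffer (log2 difference -6.64, SE 0.0801, limma adjusted p = 2.81e-09). In the other direction, ITGB2, the shared beta chain of leukocyte integrins, was at 70.6 and 64.7 FPKM in RL against 2.06 and 2.6 in Pfeiffer (log2 difference 4.37, SE 0.0921, limma adjusted p = 1.20e-08), and CD48, a ligand of the CD2 family, at 108 and 107 FPKM in RL against 0.794 and 0.913 in Pfeiffer (log2 difference 5.87, SE 0.123, limma adjusted p = 1.20e-08). S1PR2, which confines B cells to the germinal centre, was at 49.7 and 49.9 FPKM in RL against 22.9 and 23.1 in Pfeiffer (log2 difference 1.08, SE 0.119, limma adjusted p = 6.89e-05), and its G protein gene GNA13 at 62.5 and 64.8 FPKM in RL against 44.9 and 49.5 in Pfeiffer (log2 difference 0.42, SE 0.0726, limma adjusted p = 8.89e-04, under 2-fold). S1PR4, a related lipid receptor, was at 14.4 and 15.4 FPKM in RL against 0.262 and 0.212 in Pfeiffer (log2 difference 3.68, SE 0.0708, limma adjusted p = 8.62e-09).

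Of 52 respiratory chain genes encoded in the nucleus, 15 were lower in RL and 1 higher (median -0.52), and at any size 30 were lower and 7 higher. With quantile normalization 10 were lower and 2 higher by 2-fold, 25 and 14 at any size, and the median was -0.23. The shares in complex I were 3 of 22 lower, and in complexes II to V 12 of 30. COX7C, a small subunit of cytochrome oxidase, was at 220.2 and 240.5 FPKM in the RL libraries and 1161 and 938 FPKM in the Pfeiffer libraries (log2 difference -2.18, SE 0.187, limma adjusted p = 1.65e-05), and COX6C at 143 and 156 FPKM in RL against 858 and 672 in Pfeiffer (log2 difference -2.34, SE 0.199, limma adjusted p = 1.56e-05). With quantile normalization these 2 genes differed by -1.23 and -1.53. ATP5A1, the alpha subunit of ATP synthase, was at 123 and 126 FPKM in RL against 414 and 404 in Pfeiffer (log2 difference -1.71, SE 0.0961, limma adjusted p = 1.55e-06). SDHA, the catalytic subunit of complex II, was the member higher in RL (log2 difference 1.16, SE 0.0594, limma adjusted p = 9.36e-07). Several of these transcripts are short and have processed pseudogenes, and processed pseudogenes as a class were lower in RL too; that class's part in the result was not tested.

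Glycolysis had 8 of 25 measured genes higher and 4 lower (median -0.16). With quantile normalization the counts were 9 and 2 and the median 0.66, and at equal protein-coding sums 9 and 3 and 0.13. HK2, a hexokinase of growing cells, was at 23.8 and 25.9 FPKM in RL against 7.16 and 7.83 in Pfeiffer (log2 difference 1.61, SE 0.0781, limma adjusted p = 6.98e-07), and PFKFB3, which makes the activator of phosphofructokinase, at 18.2 and 19.2 FPKM in RL against 4.9 and 5.31 in Pfeiffer (log2 difference 1.69, SE 0.0754, limma adjusted p = 4.37e-07). The neuronal enolase gene ENO2 was lower, at 4.94 and 4.98 FPKM in RL against 28.1 and 29.3 in Pfeiffer (log2 difference -2.32, SE 0.0695, limma adjusted p = 5.71e-08). Cholesterol biosynthesis had 4 of 26 higher and 0 lower by 2-fold. SREBF2, the factor that drives the pathway, was at 125 and 128 FPKM in RL against 46.6 and 48.1 in Pfeiffer (log2 difference 1.4, SE 0.0716, limma adjusted p = 9.20e-07), and the enzyme genes FDFT1 and DHCR7 differed by 1.21 and 1.13.

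Taking all protein-coding genes, the largest positive differences included THY1, a surface glycoprotein, at 134 and 140.1 FPKM in RL against 0.0696 and 0.0089 in Pfeiffer (log2 difference 7.06, SE 0.0866, limma adjusted p = 2.81e-09). ALOX5, which starts leukotriene synthesis, was at 89.1 and 89.9 FPKM in RL against 0.171 and 0.0463 in Pfeiffer (log2 difference 6.35, SE 0.0717, limma adjusted p = 2.46e-09), and KARPAS-422 had 139.5 to 145 FPKM. The JNK family kinase gene MAPK10 was at 89.3 and 85.4 FPKM in RL against 0.132 and 0.184 in Pfeiffer (log2 difference 6.25, SE 0.0629, limma adjusted p = 2.08e-09), and ADA, which breaks down adenosine, at 90.1 and 89 FPKM in RL against 0.936 and 0.969 in Pfeiffer (log2 difference 5.53, SE 0.0974, limma adjusted p = 6.25e-09). LSAMP, a neuronal adhesion molecule, was at 104 and 106 FPKM in RL and is listed at 0 in Pfeiffer and KARPAS-422. EEF1A1, a translation factor that every cell needs, was at 511 and 561 FPKM in RL and is also listed at 0 in both Pfeiffer libraries, which shows that a 0 can be a failed estimate in this table. Of the genes tested, 51 are listed at 0 in both Pfeiffer libraries and 419 in both RL libraries.

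The largest negative differences, after CCL17, CD8A (given below) and CD44, included that of CYB5R2, a cytochrome reductase gene. CYB5R2 was at 0.119 and 0.0702 FPKM in RL against 222 and 226 in Pfeiffer (log2 difference -7.68, SE 0.0796, limma adjusted p = 2.08e-09). UCHL1, a neuronal ubiquitin hydrolase, was at 0.0395 and 0.163 FPKM in RL against 156 and 157 in Pfeiffer (log2 difference -7.16, SE 0.128, limma adjusted p = 6.76e-09). NGFRAP1, which lies on the X chromosome (chrX:102631267-102633005), was at 0.0381 and 0 FPKM in RL against 155 and 154 in Pfeiffer (log2 difference -7.25, SE 0.105, limma adjusted p = 4.06e-09). GLUL, which makes glutamine, was at 0.258 and 0.375 FPKM in RL against 136 and 166 in Pfeiffer (log2 difference -6.84, SE 0.116, limma adjusted p = 5.48e-09), and FBP1, an enzyme of gluconeogenesis, at 0.118 and 0.127 FPKM in RL against 131 and 133 in Pfeiffer (log2 difference -6.89, SE 0.0746, limma adjusted p = 2.44e-09). GTSF1, a germline gene of the piRNA pathway, was at 0.107 and 0.0553 FPKM in RL against 137 and 119 in Pfeiffer (log2 difference -6.89, SE 0.163, limma adjusted p = 1.90e-08), and KARPAS-422 expressed it too, at 59.4 to 84.9 FPKM. EPCAM, given below, and MYO6 and CAMK4, with differences of -6.95 and -6.84, completed the group. These genes were picked for the size of their difference, so that their values did not overlap between the lines follows from that choice.

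Transcripts that mark other cell types were present in single genes and not in whole programmes. Of 19 markers of T and NK cells, 6 passed the filter, 3 higher and 3 lower, and 13, among them CD3D, CD3G, CD2, CD5, CD7 and CD4, did not reach 1 FPKM in 2 libraries. Their summed level was 69.3 and 74.8 FPKM in RL, mostly LCK, and 429.9 and 431.7 in Pfeiffer, mostly CD8A. CD8A, a co-receptor chain of cytotoxic T cells, was at 0.12 and 0 FPKM in the RL libraries and 411 and 412 FPKM in the Pfeiffer libraries (log2 difference -8.61, SE 0.0867, limma adjusted p = 2.08e-09). Its partner CD8B was at 6.82 and 7.8 FPKM in Pfeiffer and is listed at 0 in RL. LCK, a kinase of T cell receptor signalling, was at 60.4 and 65.5 FPKM in RL against 2.04 and 1.95 in Pfeiffer (log2 difference 4.42, SE 0.0807, limma adjusted p = 7.20e-09). Of 13 myeloid markers CD33 alone passed the filter, at 22.3 and 20.9 FPKM in RL against 0 and 0.0387 in Pfeiffer (log2 difference 4.47, SE 0.105, limma adjusted p = 1.89e-08). The filter kept 5 of 15 epithelial and stromal markers, all lower in RL, and EPCAM, an epithelial adhesion molecule, was at 0.0191 and 0.0987 FPKM in the RL libraries and 134 and 135 FPKM in the Pfeiffer libraries (log2 difference -7, SE 0.0797, limma adjusted p = 2.46e-09). The summed level of that list was 0.399 and 0.155 FPKM in RL and 142.8 and 144.4 in Pfeiffer. KARPAS-422 lay above both lines at 206 to 251 FPKM, so a high sum was not particular to Pfeiffer. CDH1 was under 0.1 FPKM in all 4 RL and Pfeiffer libraries. Quantile normalization left 2 of the 5 lower by 2-fold, and COL1A1, at 0.0646 and 0.0471 FPKM in RL against 1.04 and 1.23 in Pfeiffer, then did not pass (limma adjusted p = 0.157). ITGA2B was the 1 erythroid and megakaryocyte marker of 11 that passed the filter (log2 difference -2.34, SE 0.101, limma adjusted p = 3.59e-07).

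Some protein-coding genes were on in one line and off in the other, defined as at least 5 FPKM in both libraries of one and under 0.1 FPKM in both of the other. There were 203 of them on in Pfeiffer and off in RL, and 35 on in RL and off in Pfeiffer. Of these, 57 of the 203 and 3 of the 35 are listed at exactly 0 in both libraries of the line called off. EEF1A1 is among the 3, so off means a low listed value and does not show that a transcript was absent. The counts describe the definition and have no test. The median level in the line with expression was 11.8 and 10.6 FPKM. Of the 203, 103 were also under 0.1 FPKM in all 3 KARPAS-422 libraries and 29 were at least 5 FPKM there, and of the 35 these numbers were 8 and 12. Of the 35 genes off in Pfeiffer, 0 reached 1 FPKM in both Pfeiffer libraries treated with the EZH2 inhibitor GSK343 (1.5 µM, 4 days), and 20 were under 0.1 FPKM in both. The share over all genes this low in Pfeiffer was not computed, so no response to the inhibitor can be read from these numbers.

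Examples on in RL alone were PLD4, an endolysosomal exonuclease, at 36.5 and 34.1 FPKM in RL against 0.0904 and 0.0326 in Pfeiffer, and MILR1, an inhibitory receptor, at 44.9 and 39.6 FPKM in RL against 0.0965 and 0.0501 in Pfeiffer. KARPAS-422 expressed them at 8.01 to 8.86 and 39.1 to 46 FPKM, and NMU, a neuropeptide gene at 33 and 30.4 FPKM in RL against 0.0552 and 0.0912 in Pfeiffer, is listed at 0 in all 3 of its libraries. Examples on in Pfeiffer alone were ADTRP at 0.0663 and 0 FPKM in RL against 103 and 95.8 in Pfeiffer and NETO2 at 0.00886 and 0 FPKM in RL against 66.6 and 65.7 in Pfeiffer, the latter with 35.9 to 37.2 FPKM in KARPAS-422. Runs of 3 neighbouring genes of this kind occurred 4 times, all on in Pfeiffer and off in RL. On chromosome 5 (chr5:132083136-132152488, hg19) they were CCNI2 (84.4 and 81.9 FPKM in Pfeiffer), SEPT8 (62.7 and 64.6) and SOWAHA (7.63 and 7.48). On chromosome 9 (chr9:111934254-112713755) they were EPB41L4B (25.5 and 27.4), PTPN3 (29.2 and 30.04) and PALM2 (11.9 and 12). On the X chromosome (chrX:102831158-102885881) they were TCEAL4 (12.6 and 11.4), TCEAL3 (13.1 and 12.3) and TCEAL1 (14.5 and 12.1), relatives of an elongation factor with similar sequences. On chromosome 13 (chr13:103436630-103524748) they were KDELC1, BIVM and the readthrough transcript BIVM-ERCC5, which overlaps BIVM and does not count as an independent gene. KARPAS-422 was under 0.1 FPKM for the genes on chromosomes 9 and 13, and expressed those on the X chromosome (TCEAL4 37 to 47.8 FPKM).

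Protein-coding genes of some chromosomes lay to one side. On chromosome 7, which holds EZH2, the median log2 difference was 0.80 over 512 genes, with 207 higher, 46 lower and 80.9% above 0. Next came chromosomes 21 (0.54), 22 (0.49) and 12 (0.41), and the lowest medians were those of chromosomes 18 (-0.48), 5 (-0.33) and 15 (-0.25). Against KARPAS-422, the median for chromosome 7 was 0.41 in RL and -0.30 in Pfeiffer, and for chromosome 18 it was -0.71 and -0.37; these 3 comparisons share libraries. Genes on a chromosome are not replicates, so these medians have no test. BCL2 was higher in RL and lies on chromosome 18, where 12 of 139 genes were higher, 38 lower and 33.8% above 0. DNA copy number was not analysed here.

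**Figure D5:**
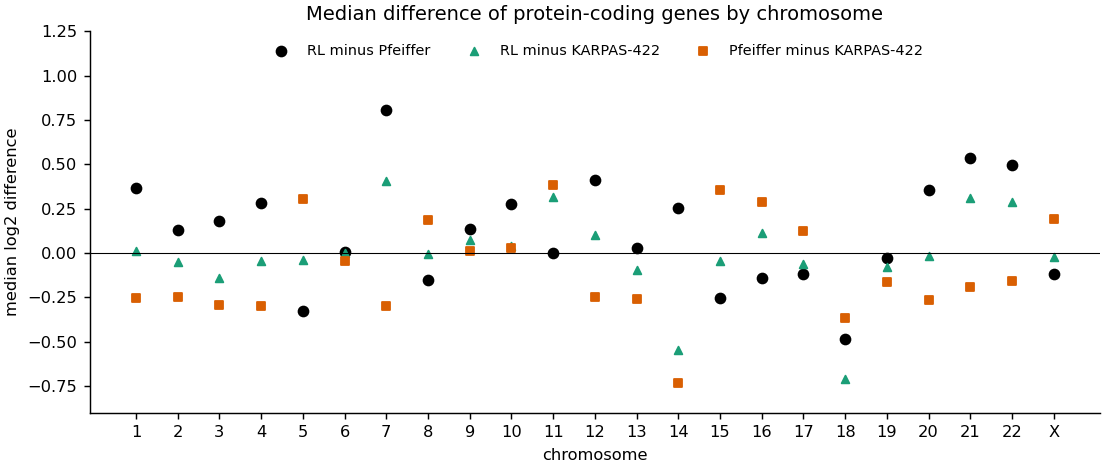
Median log2 difference of protein-coding genes tested, by chromosome (horizontal axis), for RL minus Pfeiffer (circles), RL minus KARPAS-422 (triangles) and Pfeiffer minus KARPAS-422 (squares). Chromosome 7 has the highest median for RL minus Pfeiffer (0.80) and chromosome 18 the lowest (-0.48).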

How the data were processed

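RNA was sequenced from RL, Pfeiffer and KARPAS-422 cells. The authors deposited 1 table of FPKM values for 63129 Ensembl gene identifiers. Per the submitters' processing notes, TopHat 1.4.1 aligned the reads to hg19 and Cufflinks gave the FPKM. Which annotation release, library kit and strand setting applied is not given in the sources used here, so overlapping and antisense genes are uncertain. FPKM divides by the fragments of a library, so an abundant transcript lowers all other values there.

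Columns were matched to samples by title. Identifiers with missing values (77) were left out, and the 5756 off the main chromosomes were at 0. Genes with 1 FPKM or more in at least 2 of the 4 RL and Pfeiffer libraries were transformed to log2(FPKM + 1), and each log2 difference is RL minus Pfeiffer on that scale, which understates the change of genes with low values. The 7 DMSO libraries were fitted in 3 groups with limma 3.58.1 in R 4.3.3 (trend; residual df 4, prior df 3.32), and p-values were adjusted by Benjamini-Hochberg over all 16636 genes, with a threshold of 0.05. The comparison script was tested on simulated data. A call at least 2-fold also needed a log2 difference of 1. FPKM are not counts, so no count test was used. Classes came from GENCODE 29 by identifier (16116 of the tested genes matched), and promoters from RefSeq.

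Results for some genes are not reported here. The members and the 31 gene lists were chosen with earlier results of these data known. Named genes were 30 fixed genes, the 12 highest and 12 lowest protein-coding differences, per list the 4 called members with the smallest adjusted p and the 2 largest differences each way, and genes on in 1 line alone (the 8 highest each way and those in runs). Members outside this rule (PAX5, POU2AF1, RFX5, IFI44L and the histone and structured RNA genes) were chosen after their values were seen. There were 18 alternatives: other samples in the fit, the replicate block, pseudocounts of 0.1 and 0.5, no filter or 5 FPKM, 3 scalings, protein-coding genes alone and each of the 7 libraries left out.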

Additional observations from a re-analysis of the deposited data

How the results depend on the processing

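The counts of genes higher in RL, at any size and at least 2-fold, stayed within 1.5 times their value in all 18 alternatives. The count lower, 7022, became 11013 without a filter on low values, 4506 when 5 FPKM were required and 3972 over protein-coding genes only, and the count lower by 2-fold, 4081, became 2493 and 1939 in the last 2 of these, which test other numbers of genes. Quantile normalization gave 3523 higher and 3100 lower by 2-fold, and equal protein-coding sums gave 3734 and 3362. Leaving out 1 library at a time gave 2764 to 2858 higher and 4019 to 4107 lower by 2-fold. RL and Pfeiffer share replicate numbers, but same-numbered libraries did not deviate together (correlation across genes -0.0641), so the numbers do not pair them. With the replicate block, 6522 genes were higher and 6823 lower, and 2804 and 4084 by 2-fold. Of 185 named genes called at least 2-fold, 165 stayed at least 2-fold and significant in the same direction in every alternative in which they were tested. Under 2-fold or not significant were 15 with quantile normalization, 9 at equal protein-coding sums and 0 to 2 in each other alternative. By the adjusted p and direction alone, 181 of the 185 kept their call, and the exceptions were CD74 and COL1A1 with quantile normalization, IFIT1 with all 12 libraries and NPM1, at 0.093 with quantile normalization. Among smaller differences, SYK was 0.039 at equal protein-coding sums and RBBP4 0.0027 with quantile normalization and 0.091 at equal sums; the cause was not tested. A pseudocount of 0.1 enlarged differences of genes near 0 in 1 line, such as SERPINA9. Read counts were not used, so depth limits the low values by an unknown amount.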

Other observations

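Of 21 measured chaperones and unfolded protein response genes, 5 were lower in RL and 1 higher, against 17.6% and 17.9% of all protein-coding genes. At any size 11 were lower and 3 higher, which became 8 and 7 with quantile normalization and 9 and 7 at equal protein-coding sums. The median of -0.28 was 0.0094 with quantile normalization. The endoplasmic reticulum chaperone gene HSP90B1 was at 50.5 and 52.8 FPKM in RL against 305 and 308 in Pfeiffer (log2 difference -2.55, SE 0.0906, limma adjusted p = 1.36e-07), the small heat shock protein gene HSPB1 at 0.109 and 0.204 FPKM in RL against 6.49 and 6.29 in Pfeiffer (log2 difference -2.68, SE 0.0772, limma adjusted p = 4.73e-08) and its co-chaperone BAG3 at 0.346 and 0.522 FPKM in RL against 8.15 and 8.95 in Pfeiffer (log2 difference -2.74, SE 0.0927, limma adjusted p = 1.07e-07). EIF2AK3, the PERK kinase that slows translation under stress, was higher, at 30.3 and 29.8 FPKM in RL against 5.59 and 5.68 in Pfeiffer (log2 difference 2.23, SE 0.0658, limma adjusted p = 5.38e-08). Of 17 measured amino acid response genes, 6 were higher and 2 lower. TRIB3, a target of ATF4, was at 56.4 and 53.2 FPKM in RL against 15.2 and 15.8 in Pfeiffer (log2 difference 1.76, SE 0.0757, limma adjusted p = 3.68e-07) and SHMT2, which makes glycine in mitochondria, at 289.6 and 292 FPKM in RL against 101 and 106 in Pfeiffer (log2 difference 1.49, SE 0.103, limma adjusted p = 4.82e-06). CBS, the first enzyme of transsulfuration, was at 0.0385 and 0.0158 FPKM in RL against 12.2 and 14.7 in Pfeiffer (log2 difference -3.81, SE 0.103, limma adjusted p = 3.42e-08). Ribosome biogenesis genes showed little difference, with 0 of 20 higher and 1 lower by 2-fold. That one, NPM1, which has many pseudogenes, was at 599 and 655 FPKM in RL against 1392 and 1244 in Pfeiffer (log2 difference -1.07, SE 0.166, limma adjusted p = 5.20e-04), fell under 2-fold without Pfeiffer replicate 1 and changed sign with quantile normalization.

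Of 26 genes in the list of immediate early and KLF genes, which also holds TXNIP and SPRY1, 15 were measured, 5 of them higher and 4 lower. TXNIP, which responds to glucose and binds thioredoxin, was at 133 and 139 FPKM in RL against 4.73 and 5.53 in Pfeiffer (log2 difference 4.49, SE 0.0937, limma adjusted p = 1.17e-08), and KARPAS-422 had 579.8 to 649 FPKM. NR4A1, an early gene of antigen receptor signalling, was at 10.4 and 10.7 FPKM in RL against 0.521 and 0.733 in Pfeiffer (log2 difference 2.83, SE 0.114, limma adjusted p = 2.54e-07), and SPRY1, a feedback inhibitor of the MAP kinase pathway, at 0.0305 and 0.111 FPKM in RL against 16.7 and 17.5 in Pfeiffer (log2 difference -4.08, SE 0.0743, limma adjusted p = 7.06e-09). Developmental regulators, a class that PRC2 silences in most tissues, mostly fell below the filter. All 62 had values, and 19 passed the filter, 5 higher and 8 lower, or 9 higher and 6 lower with quantile normalization. HOXA7 was at 8.47 and 7.7 FPKM in RL against 0.0774 and 0.111 in Pfeiffer (log2 difference 3.05, SE 0.0833, limma adjusted p = 3.59e-08), whereas HOXA10, from the same cluster, was at 0.547 and 0.563 FPKM in RL against 11.1 and 10.6 in Pfeiffer (log2 difference -2.92, SE 0.0696, limma adjusted p = 1.95e-08). HOXC4 was at 0.125 and 0.0446 FPKM in RL against 8.12 and 7.29 in Pfeiffer (log2 difference -3, SE 0.0915, limma adjusted p = 6.17e-08) and PITX1 at 86.7 and 81.6 FPKM in RL against 6.51 and 7.51 in Pfeiffer (log2 difference 3.41, SE 0.0808, limma adjusted p = 1.93e-08). The filter kept 5 of 35 cancer-testis genes. SSX1 and CT45A1, members of families with near-identical copies on the X chromosome, were at 47.6 and 47.2 and 32.2 and 29.4 FPKM in Pfeiffer and are listed at 0 in both RL libraries. LIN28B, which blocks let-7 maturation, was at 19 and 19.5 FPKM in RL against 3.98 and 4.77 in Pfeiffer (log2 difference 1.92, SE 0.0845, limma adjusted p = 4.13e-07).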
